A study of Mus musculus with 8 samples.

Results

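The genes that carry a cell through mitosis were compared between intestinal epithelial cells (IECs) of mice without CD1d and of wild-type mice. They were 41 genes given by symbol, and a row of the deposited count table was taken where its gene symbol was one of them. They lie on 16 chromosomes. All 41 were found among the 25239 genes listed, and all 41 were among the 15446 genes tested. CD1d is the lipid-presenting molecule on which natural killer T (NKT) cells depend, and the study asked what its loss does to the gut epithelium. Its samples were 4 untreated CD1d-KO mice, with the genotype CD1d1/2 KO in the labels, and 4 untreated WT mice, labelled C57BL/6Jax. Per the study's methods and series description, mice were males and females aged 7 to 10 weeks, matched for age and sex between genotypes. By the same sources, 150000 cells of the proximal small intestine were sorted per sample as EpCAM+ CD45- CD31- Ter119-, and the isolation enriched for crypts. The samples came from 2 experiments, and the labels give neither the experiment nor the sex of a sample. CD1d-KO mice also lack NKT cells, so loss of the gene in the epithelium and loss of NKT cells cannot be told apart. Per the study, its mice were not littermates, which may affect their microbiota. It also found altered NK cells and intraepithelial TCR-β+ lymphocytes in the CD1d-KO gut. In these samples none of this can be told apart from the genotype.

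Cd1d1, the targeted gene, had normalised counts of 7.15, 2.86, 4.89 and 0 in CD1d-KO 1 to 4 and 79.5, 73.4, 91.1 and 61.1 in WT 1 to 4, and the groups did not overlap. Total counts per sample ran from 23610266 to 31629435. Ddx3y, a gene of the Y chromosome, had 1926 and 2156 raw counts in CD1d-KO 1 and 2 and at most 1 in each of the other 6 samples. Y-linked counts above 1 were so found in CD1d-KO only, whereas the study's methods state matched sexes. Sex was not a term of the fit, and a fit without the samples with Y-linked counts is given below. Markers of epithelium were abundant in all samples, with summed normalised counts of 10 genes between 330840 and 369865. Defining markers of the cells sorted out were low or at 0: Ptprc, which encodes CD45, had 34.9 to 118.8 normalised counts, Pecam1, which encodes CD31, had 6.29 to 29.5, and the 4 haemoglobin genes had none. Marker lists of leukocytes and stomach differed between the genotypes, and their values stand beside the comparison by sample.

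Mitosis begins when cyclin B and CDK1 are switched on by CDC25 phosphatases and ends when the anaphase-promoting complex (APC/C) marks cyclin B and securin for destruction. In between, kinetochores tie the chromosomes to a spindle built by kinesins and other microtubule proteins, and the spindle checkpoint holds back the APC/C until all are attached. In the small intestine mitosis is found in the crypts, where stem cells and transit-amplifying cells divide, and not in the differentiated cells of the villus.

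Most of these genes are transcribed late in the cell cycle, and 2 short promoter motifs are known for that class. The cell cycle genes homology region (CHR) is bound by the MuvB core of the DREAM, B-MYB and FOXM1 complexes, and the CCAAT box is bound by NF-Y. RefSeq promoter windows of the mm10 assembly, 250 bases before to 50 after a start site, were at hand for 35 of the 41 genes, which had 37 windows. The CHR was searched as TTTGAA or TTCGAA and the CCAAT box as CCAAT, both on either strand, and neither motif contains the other. A CHR was found for 27 of the 35 genes and a CCAAT box for 27, and 24 held both. By window, 78.4% of those of the mitosis genes held a CHR against 19.2% of all 32851 windows. A CCAAT box was in 78.4% against 37.4%, and both motifs were in 70.3% against 7.52%. Windows of 60 further mitosis genes held a CHR in 58.8%, a CCAAT box in 66.2% and both in 39.7%. In S phase genes, which are transcribed earlier in the cycle, these shares were 17.3%, 57.7% and 13.5%. The windows of Pttg1 and Kif2c begin at a start site 270 and 3852 bases inside the gene as the count table gives it, so the bases before that table's 5′ end were not searched for these genes. No window was at hand for Ccna2, Cdc25c, Aurkb, Incenp, Kif20a and Tpx2. A match of these letters is no measured binding, and a window without one says only that the letters are not in it. The 150 bases before the start site are printed for 7 genes, 5′ to 3′ along the gene's strand, with CHR and CCAAT matches of either strand in capitals. Cdk1 is the central kinase. Kif11, Ube2c and Top2a are the motor, the ubiquitin enzyme and the topoisomerase of the set. Cdc20, Cdc25b and Ect2 are among the 4 with the smallest unadjusted p between genotypes.
Cdk1, chr10:69352913-69353062, minus strand: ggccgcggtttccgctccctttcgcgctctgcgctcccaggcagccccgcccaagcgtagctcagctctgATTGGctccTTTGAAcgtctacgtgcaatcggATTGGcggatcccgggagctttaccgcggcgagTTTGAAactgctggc
Kif11, chr19:37376232-37376381, plus strand: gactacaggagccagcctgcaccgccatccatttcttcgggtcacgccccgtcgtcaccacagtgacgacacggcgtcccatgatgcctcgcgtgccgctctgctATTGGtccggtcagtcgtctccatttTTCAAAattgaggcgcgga
Ube2c, chr2:164769779-164769928, plus strand: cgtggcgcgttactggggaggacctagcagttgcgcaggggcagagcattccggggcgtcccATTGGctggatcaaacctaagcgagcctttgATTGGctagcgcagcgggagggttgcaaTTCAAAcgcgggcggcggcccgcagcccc
Top2a, chr11:99024190-99024339, minus strand: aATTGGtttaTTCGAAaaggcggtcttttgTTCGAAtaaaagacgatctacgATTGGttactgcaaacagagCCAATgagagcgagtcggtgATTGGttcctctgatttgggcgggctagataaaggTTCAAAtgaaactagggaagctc
Cdc20, chr4:118437344-118437493, minus strand: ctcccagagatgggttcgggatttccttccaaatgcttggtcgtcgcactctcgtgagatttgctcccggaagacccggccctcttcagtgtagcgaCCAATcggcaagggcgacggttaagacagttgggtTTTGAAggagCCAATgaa
Cdc25b, chr2:131186798-131186947, plus strand: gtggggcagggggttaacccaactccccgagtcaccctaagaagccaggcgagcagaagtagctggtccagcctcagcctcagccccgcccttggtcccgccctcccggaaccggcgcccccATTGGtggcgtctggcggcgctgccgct
Ect2, chr3:27153879-27154028, minus strand: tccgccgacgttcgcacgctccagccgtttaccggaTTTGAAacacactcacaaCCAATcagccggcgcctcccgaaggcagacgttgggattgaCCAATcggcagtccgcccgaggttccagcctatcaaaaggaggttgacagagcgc

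In Cdk1 each of 2 CHR matches follows a CCAAT box read on the other strand. Cdc20 has its CHR between 2 CCAAT boxes next to the start site, and Ube2c and Kif11 have theirs downstream of the CCAAT boxes shown. Top2a has 3 CHR matches and 4 CCAAT boxes within the bases shown, the most of the 7.

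**Figure D1:**
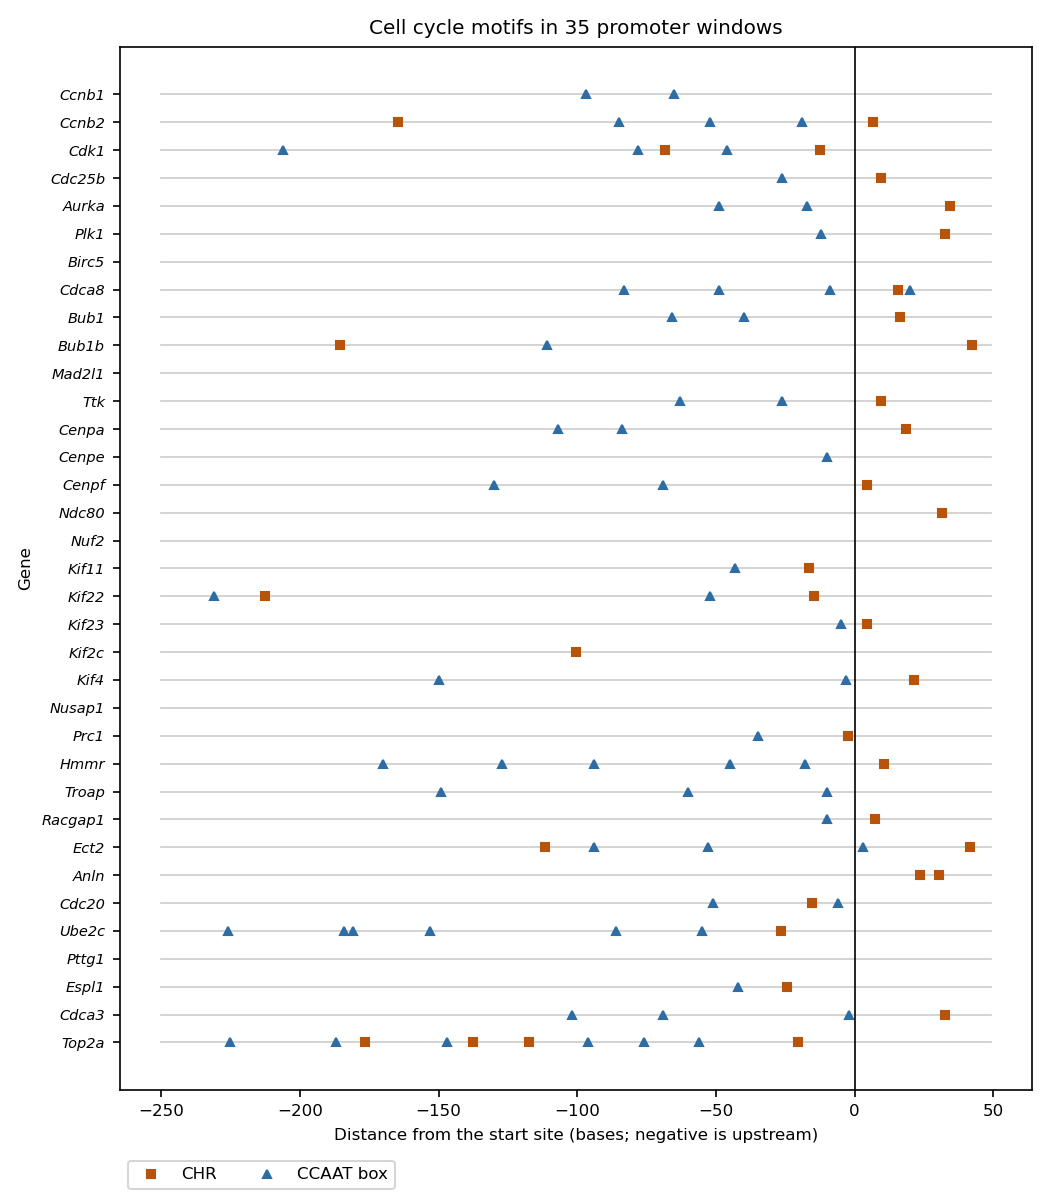
Positions of CHR (squares) and CCAAT (triangles) matches in the promoter window of each of 35 genes, in bases from the start site (vertical line), with the first window where a gene has more than 1. A match of each kind is present in 24 genes, and Birc5, Mad2l1, Nuf2, Nusap1 and Pttg1 have none in the window searched, which for Pttg1 and Kif2c lies at a start site inside the gene.

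All 41 mitosis genes were detected in every sample of the sorted IECs. Levels were compared between genes per length, in TPM (counts per exon length, scaled to an equal total in each sample) computed from the counts and exon lengths of the table. Their median was 51.0 TPM against 17.2 TPM over all genes tested. Ube2c, the ubiquitin-conjugating enzyme of the APC/C, led with a mean of 231.4 TPM over the 8 samples. Top2a, the topoisomerase that untangles sister chromosomes, followed with 205.2 TPM, Cdca3, an APC/C target that promotes mitotic entry, with 152.2 TPM, Ccnb2, a B-type cyclin, with 134.7 TPM and Cdc20, the APC/C activator, with 114.6 TPM. Troap, a protein of spindle microtubules, was lowest with 14.6 TPM. The lowest raw count of any of the genes in any sample was 307, for which counting error alone is 5.71%. Counting error covers counting only, since the libraries carried no molecular identifiers to tell copies of a molecule apart.

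**Figure D2:**
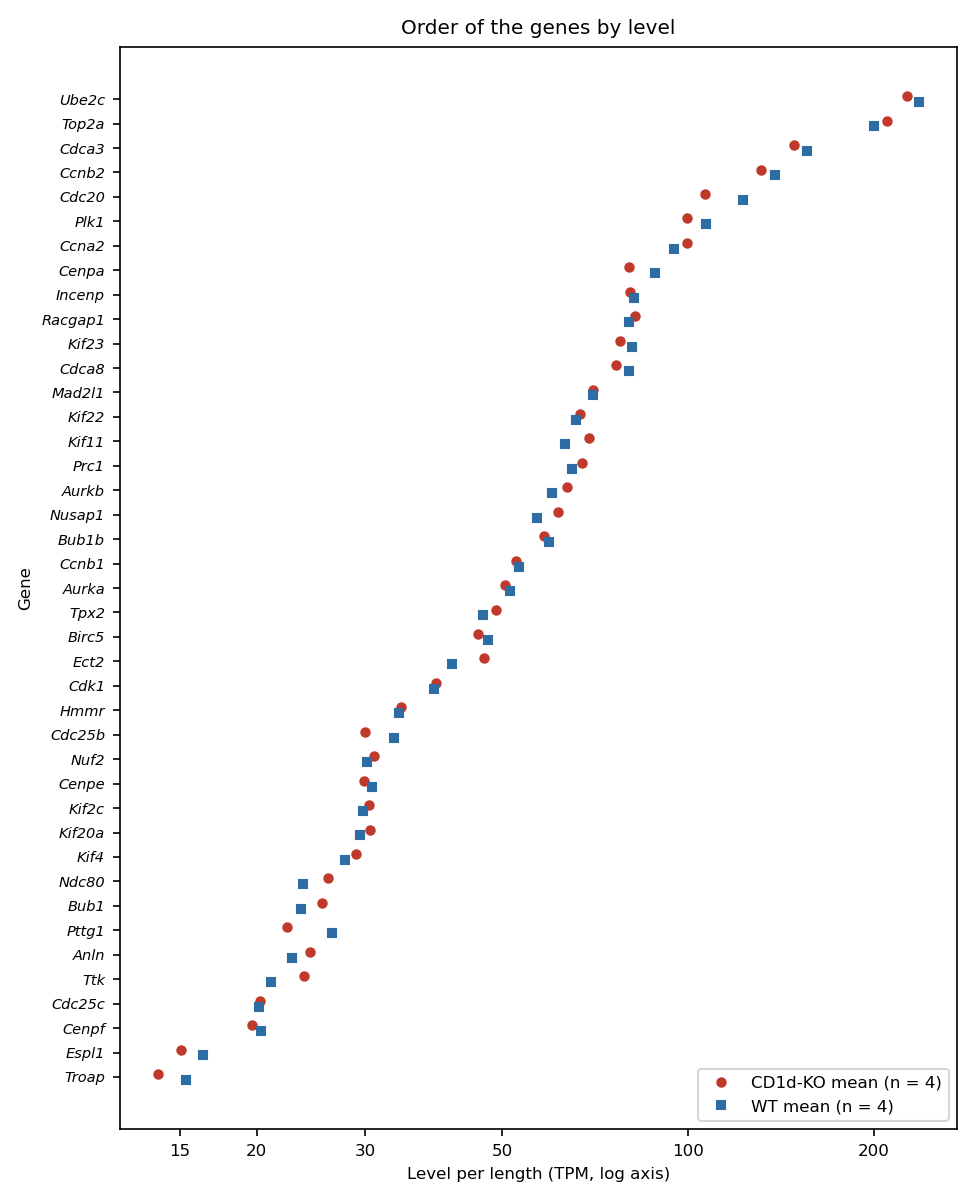
Mean level of each of the 41 genes in TPM (log axis) in 4 CD1d-KO samples (circles) and 4 WT samples (squares), ordered by the mean over all 8. Both genotypes give nearly the same order, from Troap at 14.6 TPM to Ube2c at 231.4 TPM.

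No mitosis gene was called different between CD1d-KO and WT. DESeq2 called 0 of the 41 at an adjusted p under 0.05, against 4.03% of all genes tested, and edgeR's quasi-likelihood test called 0 against 1.66%. An unadjusted DESeq2 p under 0.05 was found for 4 of the 41, against 15.3% of all genes. These were Pttg1, Cdc20 and Cdc25b, with lower means in CD1d-KO, and Ect2, with a higher one. Only Cdc25b had normalised counts that did not overlap between the genotypes, against 9.61% of all genes. By sign, 21 genes had a log2 fold change above 0 and 20 below, and 50.3% of all genes tested were above. Their median log2 fold change was 0.0065 against 0.00099 over all genes tested, and the median size of the change, without its sign, was 0.07 against 0.11. Among the 8532 tested genes with mean counts in the same range as these 41, that median size was 0.08 and 4.61% were called.

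Standard errors ran from 0.06 to 0.16 on the log2 scale. Every one of the 41 95% intervals lay within 0.5 of 0 on that scale and 32 lay within 0.3. The outermost bounds were -0.46 for Troap and 0.39 for Ndc80, which as ratios of CD1d-KO to WT are 0.725 and 1.31. An adjusted p above the threshold does not show that the genotypes were equal. The smallest difference that 4 samples a group could detect was not worked out. In bulk RNA, fewer dividing cells and less of a transcript per dividing cell cannot be told apart.

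**Figure D3:**
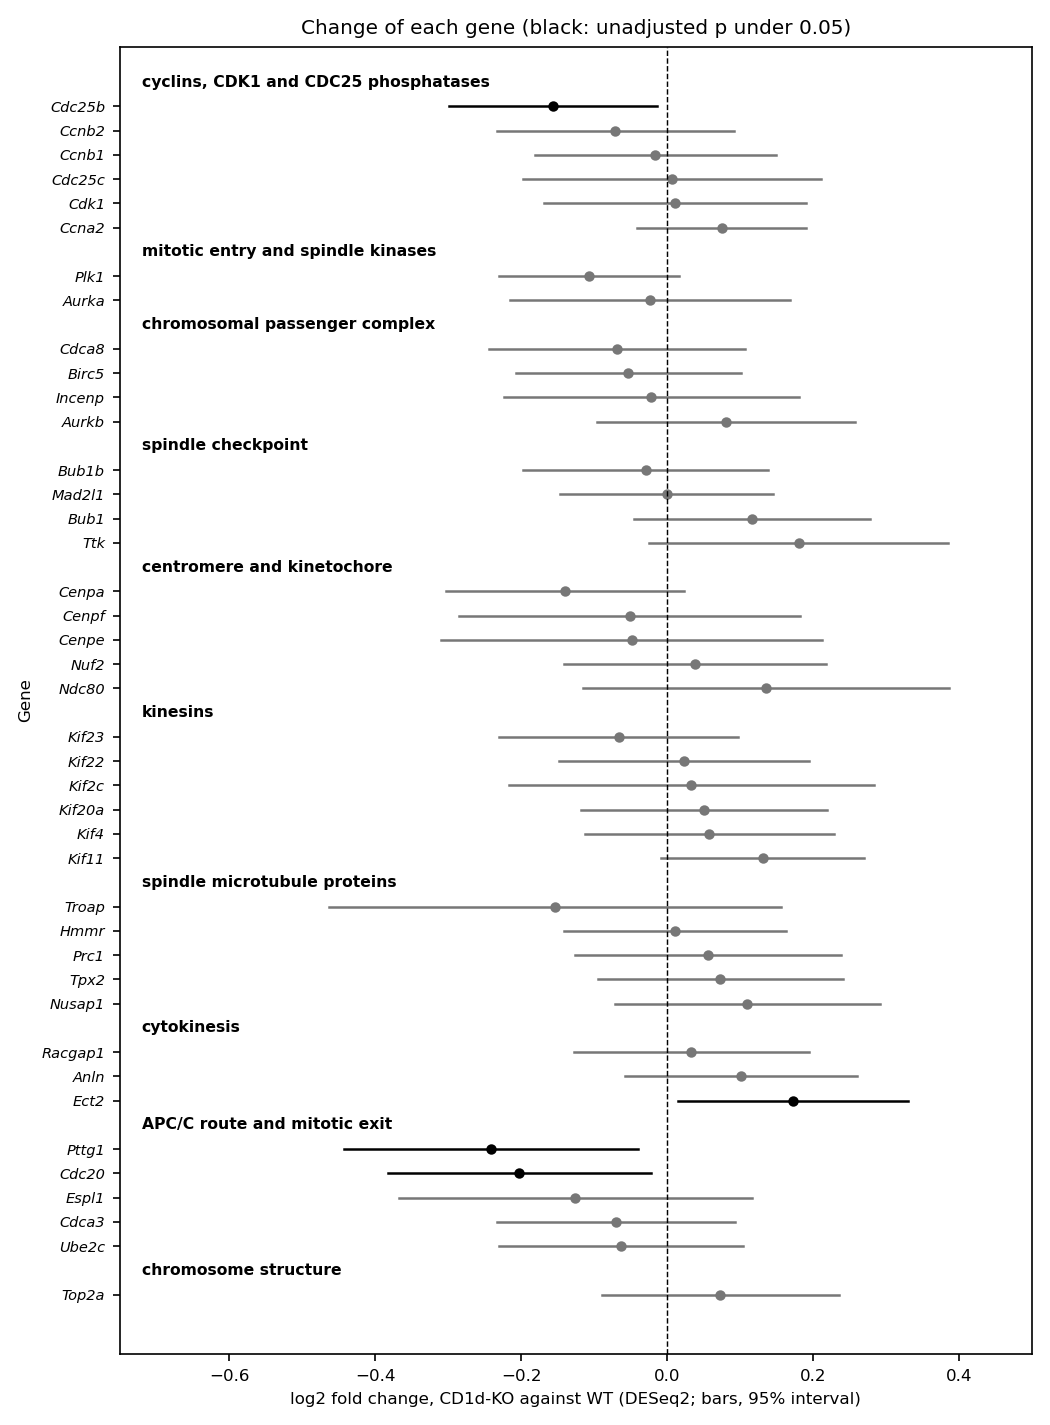
DESeq2 log2 fold change of each gene, CD1d-KO against WT, with its 95% interval (bar), grouped by role and with 4 samples a group. The 41 changes lie between -0.24 and 0.18, and the 4 black genes, whose unadjusted p was under 0.05, had adjusted p between 0.195 and 0.260.

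Among the genes of mitotic entry, the cyclins Ccna2, Ccnb1 and Ccnb2, the kinase Cdk1 and the phosphatases Cdc25b and Cdc25c, 3 had higher and 3 lower means in CD1d-KO, with a median log2 fold change of -0.0048. Cdc25b (mm10 chromosome 2, 131186948 to 131198511, plus strand) encodes a phosphatase that activates CDK1 at the centrosome, and its normalised counts were 1062, 1131, 1162 and 1186 in CD1d-KO 1 to 4 and 1364, 1199, 1225 and 1271 in WT 1 to 4. Every CD1d-KO sample was below every WT sample, with CD1d-KO 4 and WT 2 closest to each other. The log2 fold change was -0.16 ± 0.07 (SE, adjusted p = 0.260). Cdk1, the kinase that drives mitosis, had normalised counts of 2071, 1969.6, 2259 and 1879.8 in CD1d-KO 1 to 4 and 2246, 1969, 1767 and 2136 in WT 1 to 4. CD1d-KO 3 was highest and WT 3 lowest, the means were 2045 ± 163 in CD1d-KO and 2029.7 ± 209 in WT (SD, n = 4), and the log2 fold change was 0.01 ± 0.09 (SE, adjusted p = 0.981). For Ccnb1, which encodes cyclin B1, the counts were 1319, 1572, 1506 and 1464 in CD1d-KO 1 to 4 and 1629.7, 1404, 1371 and 1522 in WT 1 to 4, with CD1d-KO 1 lowest and WT 1 highest. Its log2 fold change was -0.02 ± 0.08 (SE, adjusted p = 0.971), and 4 pseudogenes of at least 95% identity could take or give reads to it. Ccnb2 had counts of 2291, 2437, 2652 and 2363 in CD1d-KO 1 to 4 and 2679, 2405, 2320.0 and 2831 in WT 1 to 4, with the genotypes interleaved, and a log2 fold change of -0.07 ± 0.08 (SE, adjusted p = 0.793). Ccna2 and Cdc25c had log2 fold changes of 0.07 and 0.01, and 11.2% of the exon length of Ccna2 overlaps Exosc9.

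The kinases Plk1 and Aurka both had lower means in CD1d-KO. Plk1, which acts at centrosomes and kinetochores, had normalised counts of 2868, 2554, 2497 and 2663 in CD1d-KO 1 to 4 and 2903, 2885, 2765 and 2849 in WT 1 to 4. The 4 WT samples lay close together and CD1d-KO 2, 3 and 4 below them all, with a log2 fold change of -0.11 ± 0.06 (SE, adjusted p = 0.431). Aurka, the spindle pole kinase, had -0.02 on the log2 scale, and its WT samples ran from 1010 to 1356 against 1166 to 1236 in CD1d-KO.

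In the chromosomal passenger complex, which corrects faulty attachments, Aurkb is the kinase and Incenp, Birc5 and Cdca8 hold it in place. Aurkb had normalised counts of 1526, 1581, 1588 and 1329.7 in CD1d-KO 1 to 4 and 1606, 1428, 1309 and 1353 in WT 1 to 4. CD1d-KO 4, WT 3 and WT 4 were the 3 lowest samples, the means were 1506 ± 121 in CD1d-KO and 1424 ± 131 in WT (SD, n = 4), and the log2 fold change was 0.08 ± 0.09 (SE, adjusted p = 0.776). The 3 partners had lower means in CD1d-KO, with log2 fold changes from -0.07 (Cdca8) to -0.02 (Incenp) and adjusted p between 0.820 and 0.968.

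The spindle checkpoint was split, with Ttk and Bub1 higher in mean and Bub1b and Mad2l1 lower. Ttk, the kinase that starts checkpoint signalling, had the most positive value of the 41, a log2 fold change of 0.18 ± 0.10 (SE, adjusted p = 0.424). Its counts were 890.5, 931, 932 and 829.5 in CD1d-KO 1 to 4 and 896, 790.2, 647 and 828.9 in WT 1 to 4. WT 3 was lowest, and WT 1 lay within the CD1d-KO range. Bub1, a checkpoint kinase at kinetochores, had normalised counts of 1249, 1428, 1317 and 1331 in CD1d-KO 1 to 4 and 1307, 1233, 1082 and 1291 in WT 1 to 4, with WT 3 again lowest and CD1d-KO samples in the 3 highest places. The log2 fold change was 0.12 ± 0.08 (SE, adjusted p = 0.561). Mad2l1, the checkpoint protein that binds Cdc20, was at -0.00069 on the log2 scale and has 1 pseudogene of at least 95% identity, and Bub1b was at -0.03.

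Centromere and kinetochore genes had no common direction, with 2 higher and 3 lower in mean. Cenpa, the histone H3 variant that marks centromeres, had normalised counts of 1440.3, 1512, 1609.9 and 1540.0 in CD1d-KO 1 to 4 and 1858, 1730.2, 1475 and 1660.2 in WT 1 to 4. WT 1, 2 and 4 were above all CD1d-KO samples and WT 3 was within their range, giving a log2 fold change of -0.14 ± 0.08 (SE, adjusted p = 0.442). Ndc80, the microtubule-binding subunit of the kinetochore, had counts of 707, 752, 699.9 and 604 in CD1d-KO 1 to 4 and 706, 637, 478 and 697 in WT 1 to 4. WT 3 was the lowest sample, and the other 3 WT samples lay inside the CD1d-KO range. Its log2 fold change was 0.14 ± 0.13 (SE, adjusted p = 0.710). Nuf2, the partner of Ndc80, was at 0.04, and the motor Cenpe and the large kinetochore protein Cenpf were at -0.05 each.

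Of 6 kinesins, 5 had a higher mean in CD1d-KO and Kif23 a lower one. Kif11, the motor that pushes the spindle poles apart, had normalised counts of 4014, 4163, 4074 and 3836 in CD1d-KO 1 to 4 and 3961, 3598, 3293 and 3844 in WT 1 to 4. CD1d-KO samples took the 3 highest places and WT samples the 2 lowest, for a log2 fold change of 0.13 ± 0.07 (SE, adjusted p = 0.378). The others were Kif4 at 0.06, Kif20a at 0.05, Kif2c at 0.03, Kif22 at 0.02 and Kif23 at -0.07, with adjusted p between 0.814 and 0.958. Exons of Kif20a overlap those of Brd8 and Cdc23 over 34.4% of its length, and pairs of reads that fell on several genes were left out of the count.

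Among the spindle microtubule proteins, Tpx2, Nusap1, Prc1 and Hmmr had higher means in CD1d-KO and Troap a lower one. Tpx2, which activates Aurora A on the spindle, had counts of 2349, 2686, 2789 and 2439.6 in CD1d-KO 1 to 4 and 2651, 2418, 2158 and 2529 in WT 1 to 4. WT 3 was lowest and CD1d-KO 3 highest, with a log2 fold change of 0.07 ± 0.09 (SE, adjusted p = 0.793). Troap had a log2 fold change of -0.15 ± 0.16 (SE, adjusted p = 0.745) and the widest interval of all. Its WT 1 sample stood at 575.3 normalised counts against 337.0 to 404.8 in the other 7. Nusap1, Prc1 and Hmmr were at 0.11, 0.06 and 0.01 on the log2 scale, and 7.03% of the exon length of Nusap1 overlaps Oip5.

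The 3 cytokinesis genes all had higher means in CD1d-KO, with a median log2 fold change of 0.10. Ect2 (mm10 chromosome 3, 27097222 to 27153878, minus strand), the exchange factor that sets the cleavage plane through RhoA, had normalised counts of 2154, 2577, 2182 and 2315 in CD1d-KO 1 to 4 and 2006, 1992, 1949.6 and 2245 in WT 1 to 4. WT 4 lay above 2 CD1d-KO samples, so the groups overlapped, and the log2 fold change was 0.17 ± 0.08 (SE, adjusted p = 0.259). Anln, the ring protein anillin, had counts of 1523, 1675, 1597 and 1568 in CD1d-KO 1 to 4 and 1528, 1439, 1320.4 and 1650.5 in WT 1 to 4. WT 4 was second highest and CD1d-KO 2 highest, with a log2 fold change of 0.10 ± 0.08 (SE, adjusted p = 0.630). Racgap1, which works with Ect2 and Kif23 at the central spindle, was at 0.03.

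All 5 genes of the APC/C route had lower means in CD1d-KO, with a median log2 fold change of -0.13. Pttg1 (mm10 chromosome 11, 43420244 to 43426251, minus strand) encodes securin, the APC/C target that holds back separase, and had the most negative value of the 41. Its normalised counts were 451, 491, 533 and 437 in CD1d-KO 1 to 4 and 609.7, 568, 497 and 586 in WT 1 to 4. Only WT 3 fell inside the CD1d-KO range, and the log2 fold change was -0.24 ± 0.10 (SE, adjusted p = 0.195). Cdc20 (mm10 chromosome 4, 118432901 to 118437343, minus strand) shares 2.91% of its exon length with Elovl1 and had counts of 2112, 2356, 2514 and 2161 in CD1d-KO 1 to 4 and 2986, 2511, 2329 and 2695 in WT 1 to 4. WT 1 and WT 4 were above all CD1d-KO samples and WT 2 and WT 3 below CD1d-KO 3, with a log2 fold change of -0.20 ± 0.09 (SE, adjusted p = 0.243). Espl1, which encodes separase, the protease that cuts cohesin, had counts of 1228, 1363, 1012 and 1226 in CD1d-KO 1 to 4 and 1562, 1226, 1084 and 1397 in WT 1 to 4. Both genotypes spread widely and overlapped, and its log2 fold change was -0.13 ± 0.12 (SE, adjusted p = 0.725). Ube2c had normalised counts of 2311, 2522, 2799 and 2506 in CD1d-KO 1 to 4 and 2805, 2707, 2315 and 2768 in WT 1 to 4 and a log2 fold change of -0.06 ± 0.09 (SE, adjusted p = 0.827). Cdca3 had normalised counts of 2599.9, 2794, 2801 and 2428 in CD1d-KO 1 to 4 and 3091, 2807, 2473 and 2784 in WT 1 to 4 and a log2 fold change of -0.07 ± 0.08 (SE, adjusted p = 0.797). For both, the genotypes interleaved.

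Top2a, the single gene of chromosome structure, had normalised counts of 13084, 13695, 13633 and 12359 in CD1d-KO 1 to 4 and 13798, 12120.0, 10823 and 13435 in WT 1 to 4, the highest of the set. WT held its highest and its lowest sample, the means were 13193 ± 619.9 in CD1d-KO and 12544 ± 1355 in WT (SD, n = 4), and the log2 fold change was 0.07 ± 0.08 (SE, adjusted p = 0.785).

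The spread among WT samples was larger than the difference between the genotypes. A score was computed per sample as the mean over the 41 genes of log2(normalised count + 1), centred on each gene's mean over all samples. It was -0.03, 0.06, 0.03 and -0.06 in CD1d-KO 1 to 4 and 0.14, -0.03, -0.19 and 0.07 in WT 1 to 4. The group means differed by 0.0007, with an SD of 0.06 in CD1d-KO and 0.14 in WT. The WT samples held both ends, and WT 1 exceeded WT 3 by 0.33, a 1.26-fold difference. Gene by gene, WT 3 was the lowest of all 8 samples for 28 genes and WT 1 the highest for 23. Within WT, WT 3 was lowest for 39 of the 41, which is 95.1% against 27.2% of all genes tested, and WT 1 was highest for 73.2% against 29.4%. The 2 exceptions to WT 3 were Cdc25b and Mad2l1, in which WT 2 was lowest. The coefficient of variation was larger in WT for 38 of the 41, against 47.5% of all genes tested, with medians of 9.48% in WT and 6.72% in CD1d-KO. Genes counted in the same library share its composition and are not replicates, so these counts describe 8 libraries.

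**Figure D4:**
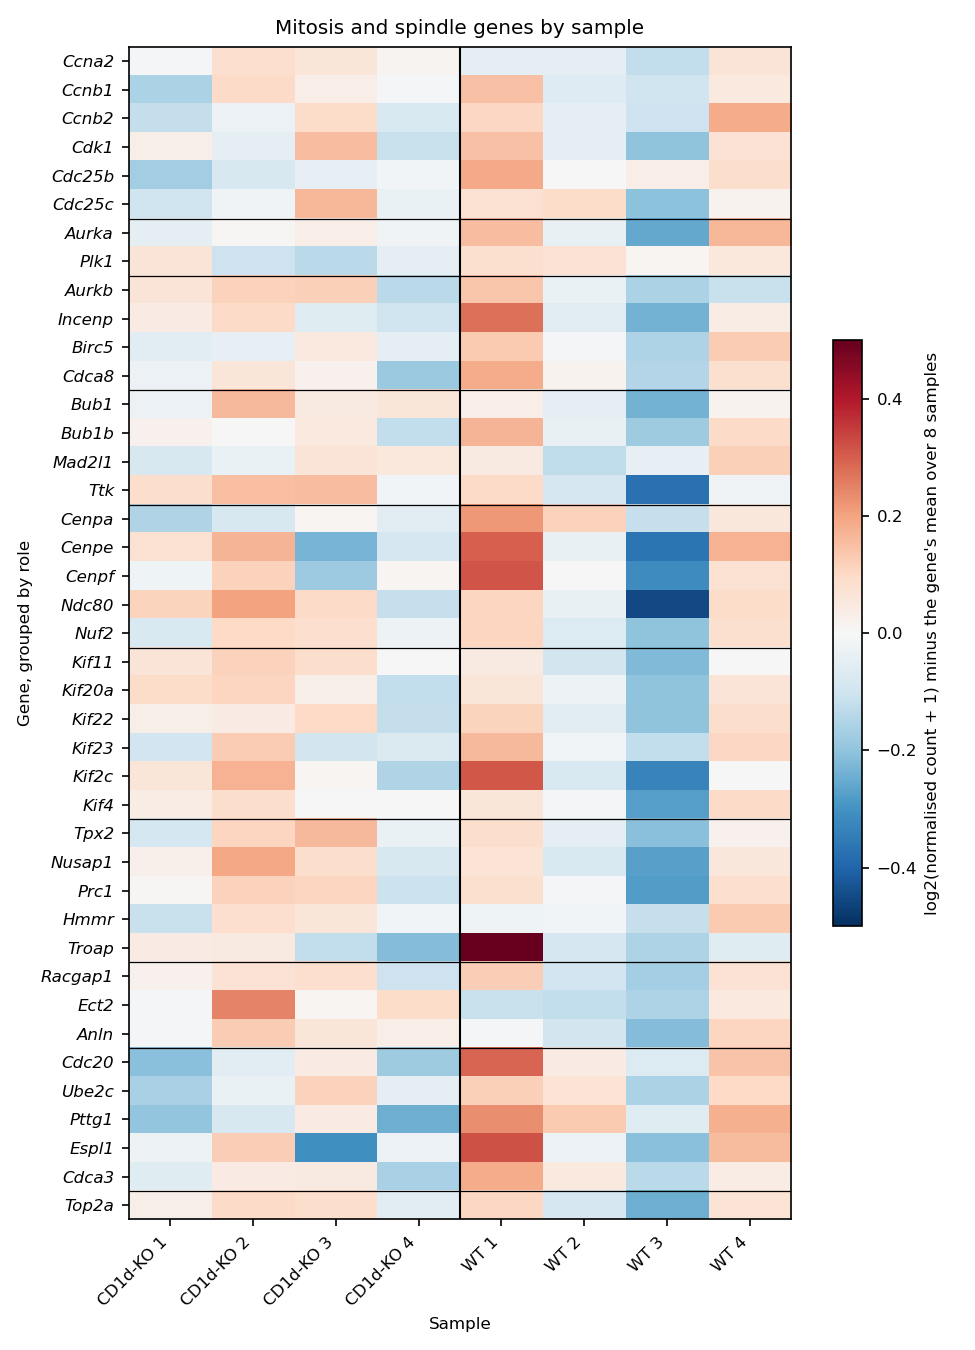
Heat map of log2(normalised count + 1) minus the gene's mean over the 8 samples, 1 row for each of the 41 genes grouped by role and 1 column for each sample. The WT 3 column is below the mean for 39 genes and the WT 1 column above it for 37, and the CD1d-KO columns range from 30 genes above it (CD1d-KO 2) to 7 (CD1d-KO 4).

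The balance of higher and lower means changed with the samples in the fit. Without WT 3, 11 of the 41 genes had a higher mean in CD1d-KO and 30 a lower one, with a median log2 fold change of -0.05. Without WT 1, 29 were higher and 12 lower, with a median of 0.05. No gene was called in either fit or under any of the 16 alternatives. Over all 17 fits, 11 genes had a log2 fold change below 0 throughout, among them Pttg1, Cdc20, Cdc25b, Plk1 and Cenpa. Ect2, Anln and Ccna2 had one above 0 throughout, and 27 genes took both signs. Of these, Aurkb, Bub1, Kif11, Ndc80, Nusap1, Top2a, Tpx2 and Ttk turned only with a score of stomach markers as a covariate. Leaving out the CD1d-KO samples with Y-linked counts gave 22 higher and 19 lower.

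Markers of other cell types also differed between samples. Summed normalised counts of 13 stomach markers, of which 12 were tested and 6 called by DESeq2 (Cldn18, Anxa10, Ctse, Vsig1, Muc5ac and Muc6, and 9 by edgeR), were 1036 to 1975 in CD1d-KO and 2856 to 18079 in WT, with WT 3 highest. Muc5ac, the mucin of the gastric surface, was at 0 in CD1d-KO 1, 2 and 3, at 19.2 normalised counts in CD1d-KO 4 and at 10.8 to 2350.0 in WT. The leukocyte markers, of which 16 were tested and 5 called by DESeq2, all lower in CD1d-KO (among them Jchain, Cd8a and Itgam, and 0 by edgeR), summed to 862.1 to 993.3 in CD1d-KO and 1061 to 2428 in WT, with WT 1 highest. Itgam made up most of that sum in CD1d-KO, with 678 to 848 normalised counts, and without it the sums overlapped, at 122.9 to 226.6 in CD1d-KO and 217.6 to 1259 in WT. Their defining gene Ptprc stood at 118.8 normalised counts in WT 1. With the stomach score as a covariate, DESeq2 called 0 of the 41 mitosis genes. It gave 7 an unadjusted p under 0.05, against 9.24% of all genes. In that fit 37 had a log2 fold change below 0, with a median of -0.19. These are coefficients adjusted for the score and not differences of the group means. The stomach score did not overlap between the genotypes, so its part and that of the genotype cannot be told apart. In WT 1 to 4, scores were -0.27, 0.08, 0.08 and -0.32 for enterocyte and -0.06, 0.16, 0.48 and -0.36 for goblet markers. Those of enteroendocrine markers were -0.35, 0.18, 0.36 and -0.52, and of tuft markers -0.25, 0.07, 0.44 and 0.28. For Paneth cell markers the scores were -0.09, -0.06, -0.28 and -0.53. In CD1d-KO 1 to 4, scores were -0.32, 0.07, 0.34 and 0.33 for enterocyte and 0.10, -0.68, 0.16 and 0.19 for goblet markers. Those of enteroendocrine markers were -0.14, -0.46, 0.45 and 0.48, and of tuft markers -0.23, -0.39, 0.05 and 0.02. Paneth cell markers had 0.32, -0.25, 0.26 and 0.64. Stem cell markers scored 0.20, -0.15, -0.17 and -0.01 in WT 1 to 4 and 0.25, 0.18, -0.11 and -0.19 in CD1d-KO 1 to 4. The part of leukocyte RNA or of any of these cell types in the spread among samples was not tested.

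**Figure D5:**
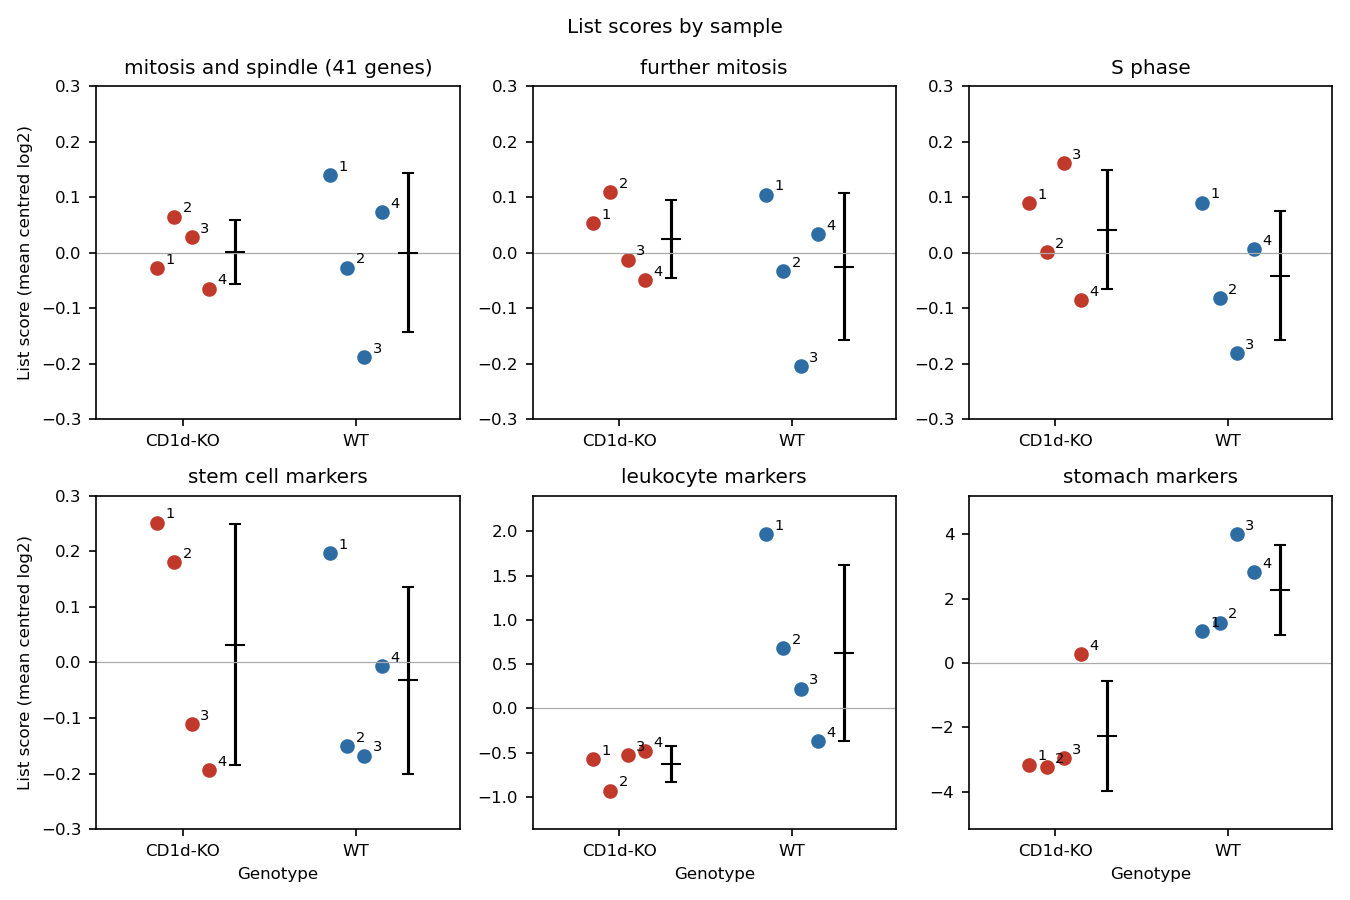
Per-sample scores (mean centred log2) of the 41 mitosis genes, further mitosis genes, S phase genes and 3 marker lists, with the mean and SD of 4 samples a group beside the points and wider vertical axes for the leukocyte and stomach panels. The 3 cell cycle scores overlap between genotypes with WT 3 lowest in each, whereas the stomach score is above 0 in all 4 WT samples and in CD1d-KO 4.

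Other genes of the cell cycle were taken from lists written for this comparison. Their counts, and those of the stem cell markers, are to be read beside the shares over all genes tested. Of all genes tested, 15.3% had an unadjusted DESeq2 p under 0.05 and 50.3% a log2 fold change above 0. DESeq2 called 4.03% and edgeR 1.66%. Of 73 further mitosis genes tested, 0 were called by DESeq2 or edgeR, 7 had an unadjusted p under 0.05, and 50 had a higher mean in CD1d-KO, with a median log2 fold change of 0.05. The 2 with the smallest p were Oip5, a centromere protein, at 0.29 ± 0.12 (SE, adjusted p = 0.203), and Ncapd3, a condensin subunit, at 0.21 ± 0.09 (SE, adjusted p = 0.224). Mki67, which encodes the proliferation marker Ki-67, had normalised counts of 19724, 20361, 17962 and 18292 in CD1d-KO 1 to 4 and 21943, 18539, 16453 and 19753 in WT 1 to 4. WT 1 was highest, as in 23 of the 41 genes, and WT 3 lowest, as in 28, and the log2 fold change was -0.01 ± 0.09 (SE, adjusted p = 0.989).

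Of 16 APC/C subunits and co-activators 0 were called by either tool, 3 had an unadjusted p under 0.05, and 7 had a higher and 9 a lower mean. Fzr1, which encodes the APC/C activator CDH1 that takes over from Cdc20 at mitotic exit, had normalised counts of 1455, 1472, 1609 and 1469 in CD1d-KO 1 to 4 and 1736, 1701, 1707 and 1666 in WT 1 to 4. Every CD1d-KO sample was below every WT sample, and the log2 fold change was -0.18 ± 0.06 (SE, adjusted p = 0.0658). Cdc16, a subunit of the APC/C itself, went the other way without overlap, at 0.16 ± 0.07 (SE, adjusted p = 0.202).

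Of 21 regulators of cell cycle transcription 0 were called by either tool, 4 had an unadjusted p under 0.05, and 13 had a higher mean in CD1d-KO. E2f8, a repressing E2F factor, was at 0.17 ± 0.08 (SE, adjusted p = 0.263), and E2f4, the E2F of the DREAM complex, at -0.12 ± 0.06 (SE, adjusted p = 0.282). Foxm1 and Mybl2, whose products drive the late genes from CHR promoters, had log2 fold changes of -0.05 and 0.01 with adjusted p of 0.872 and 0.989. None of the 6 CDK inhibitor genes tested was called by either tool and 0 had an unadjusted p under 0.05. Cdkn2c and Cdkn1b, the pair with the smallest p, were at 0.13 and 0.09. Cdkn1a, which encodes p21, was at 0.02 ± 0.12 (SE, adjusted p = 0.972).

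S phase genes, which copy the DNA, had a log2 fold change above 0 for 47 of 54, against 50.3% of all genes tested, with a median log2 fold change of 0.09 against 0.00099 over all genes tested. Again 0 were called by DESeq2 or edgeR and 5 had an unadjusted p under 0.05. Pola1, the catalytic subunit of DNA polymerase alpha, was at 0.23 ± 0.09 (SE, adjusted p = 0.113). With the stomach score as a covariate the median turned to -0.13, and that of the further mitosis genes to -0.17. Without CD1d-KO 4, 2 S phase genes were called, and without WT 1 there was 1. The sample scores of the S phase genes overlapped between the genotypes, at -0.09 to 0.16 in CD1d-KO and -0.18 to 0.09 in WT. Markers of crypt stem cells, of which 10 were tested and 0 called by DESeq2 or edgeR, had a higher mean in CD1d-KO for 8, and 2 had an unadjusted p under 0.05. These were Slc12a2, at 0.29 ± 0.13 (SE, adjusted p = 0.218), and Tnfrsf19, at -0.34 ± 0.16 (SE, adjusted p = 0.283). The stem cell list had scores of -0.19 to 0.25 in CD1d-KO and -0.17 to 0.20 in WT, and Lgr5, the defining one, was at 0.17 ± 0.15 (SE, adjusted p = 0.659).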

How the data were processed

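Bulk poly(A) RNA-seq libraries (KAPA mRNA HyperPrep) of sorted IECs were sequenced by the study, 1 per mouse, and grouped here by the genotype in the labels. The authors deposited 1 table of raw counts of read pairs per gene, with no normalization. Per the file headers, featureCounts 1.6.4 counted primary alignments over the exons of an mm10 refGene annotation without strand and left out pairs on several genes. The submitters' notes name HISAT2 and GRCm39, and coordinates given are those of the table's mm10. The deposited exon length of each gene was used only for TPM.

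As in the study's methods, genotypes were compared in DESeq2 1.42.0 under R 4.3.3, with no other term. Calls were Benjamini-Hochberg adjusted p-values below 0.05 across the 15446 tested genes, since 3638 fell to the independent filter (mean of 2.41) and 4 to Cook's rule. edgeR 4.0.16 was an alternative. Replicates within a genotype differed by more than sampling noise (chi-square per degree of freedom 9.73 to 37.2). In WT the values were 9.73 to 28.4. In CD1d-KO the value was 13.3 between samples 1 and 2, which had the Ddx3y counts, and 27.4 between 3 and 4. Comparing sample 1 or 2 with 3 or 4 gave 33.1 to 37.2. Whether this split follows sex or experiment was not tested. Scores used a pseudocount of 1. Tables were handled in Python 3.11.15.

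The 41 genes, the lists and the alternatives were chosen with earlier results of these data known. The lists were written from general knowledge. Values per sample are given for genes with an unadjusted p under 0.05, the 3 most positive and 3 most negative log2 fold changes, the 5 highest TPM and 12 genes that stand for the roles. Of other lists, called genes or the 2 with the smallest p are named, and Mki67, Foxm1, Mybl2, Cdkn1a, Cd1d1 and Ddx3y. Some genes that the rule names are not reported here. Troap, Aurka, Ptprc, Pecam1 and Lgr5 were chosen after their values were seen. Of the marker lists, endothelium, stroma and erythroid cells had at most 176.9 summed normalised counts in a sample, and enterocyte, goblet, tuft and enteroendocrine lists had 0 called genes and Paneth cells 4 (Defa17, Defa21, Defa26 and Lyz1), all higher in CD1d-KO, and 0 by edgeR.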

Additional observations from a re-analysis of the deposited data

Results flagged for a closer look

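Each of the 41 genes and the score was looked at in both genotypes for a sample standing apart from its 3 group mates, 84 groups in all, and Dixon's test at its 95% critical value marked 2, where chance marks about 1 in 20. In CD1d-KO, Kif23, the central spindle kinesin, had 3557 normalised counts in CD1d-KO 2 against 3044 to 3102 in the other 3. In WT, Troap had 575.3 normalised counts in WT 1 against 351.9 to 375.3 in the other 3. Without WT 1 the log2 fold change of Troap was 0.04 in place of -0.15, and neither value was called.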

How the results depend on the processing

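No mitosis gene was called under any of the 16 alternatives to the DESeq2 fit, which were edgeR, TMM factors, size factors without the 50 most abundant genes, a filter of 10 counts in 4 samples, no filtering or Cook rule, leaving out each of the 8 samples, the replicate number as a block, the samples without Y-linked counts and the stomach score as a covariate. Over all genes, 622 were called by DESeq2 and 228 by edgeR, 323 to 646 with a sample left out (406 without WT 1, 385 without WT 2 and 323 without CD1d-KO 2), 372 without Y-linked samples and 99 with the stomach covariate. That covariate moved the median log2 fold change of the mitosis genes to -0.19, of the further mitosis genes to -0.17 and of the S phase genes to -0.13. With a sample left out these medians were -0.05 to 0.05, -0.02 to 0.09 and 0.05 to 0.14, and the S phase genes called numbered 0 to 2 (2 without CD1d-KO 4, 1 without WT 1) and the further mitosis genes 0 to 1 (1 without WT 4). In 58 cases a gene's log2 fold change took the other sign, none of them a call. With the stomach covariate these were Cdk1 -0.24, Cdc25c -0.19, Aurkb -0.25, Bub1 -0.0077, Mad2l1 0.074, Ttk -0.14, Ndc80 -0.31, Nuf2 -0.12, Kif11 -0.046, Kif20a -0.22, Kif22 -0.23, Kif2c -0.43, Kif4 -0.12, Tpx2 -0.12, Nusap1 -0.17, Prc1 -0.25, Hmmr -0.041, Racgap1 -0.19, Top2a -0.16. Without Y-linked samples they were Ccnb1 0.0048, Mad2l1 0.057, Kif20a -0.022, Kif2c -0.063, Ube2c 0.0034. With a sample left out the ranges of the genes that turned were Ccnb1 -0.052 to 0.033, Mad2l1 -0.041 to 0.039, Kif2c -0.063 to 0.16, Hmmr -0.026 to 0.057, Cdk1 -0.051 to 0.063, Cdc25c -0.058 to 0.043, Cenpe -0.16 to 0.049, Kif22 -0.036 to 0.065, Incenp -0.097 to 0.076, Bub1b -0.090 to 0.025, Aurka -0.11 to 0.029, Cenpf -0.15 to 0.055, Troap -0.23 to 0.041, Nuf2 -0.020 to 0.082, Kif20a -0.0058 to 0.098, Kif4 -0.017 to 0.098, Prc1 -0.021 to 0.099, Racgap1 -0.016 to 0.080. The cause was not tested. Counting error in the mitosis genes was at most 5.71% of a count, and their median coefficient of variation was 6.72% in CD1d-KO and 9.48% in WT.

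Same-numbered samples of the genotypes did not deviate together, with correlations of 0.10, 0.01, 0.15 and -0.04 over all genes tested, so the numbers were not taken as pairs, and not every sample correlated best with its own number. With the number as a replicate block, DESeq2 called 0 of the mitosis genes and 1 of the S phase genes, 22 mitosis genes were higher and 19 lower in CD1d-KO, and Mad2l1 turned to 0.00049.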
